A study of Mus musculus with 28 samples.

Results

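Transcript levels were compared for 10 genes of the lipid droplet coat and of lipolysis: the perilipins Plin2, Plin3, Plin4 and Plin5, the CIDE genes Cidea, Cideb and Cidec, the lipase gene Pnpla2, its inhibitor gene G0s2, and the fatty acid carrier gene Fabp4. They were listed by name, not by a measured value, but with earlier results of these data known. All 10 were found among the 17752 gene symbols of the liver table and among the 56748 and 21959 Ensembl identifiers of the macrophage tables. Messenger RNA was sequenced from 16 livers and 12 macrophage cultures in 8 groups, and the question was how macrophage NFATc3 and ASK1 bear on steatohepatitis. Male mice, 8 weeks old, received 4 weeks of an MCD diet, which lacks methionine and choline and makes the liver fatty and inflamed. Groups of 4 livers were labelled Lyz2-Cre (controls), NFATc3 macrophage knockout (NFATc3-MKO), ASK1 macrophage knockout (ASK1-MKO) and knockout of both (MDKO). Bone marrow-derived macrophages (BMDMs) grew for 7 days with 30% L929-conditioned medium, a source of the growth factor M-CSF. They were labelled NFATc3 macrophage knockin (NFATc3-MKI) or ASK1 macrophage knockin (ASK1-MKI), with 3 cultures each, and each had its own 3 Lyz2-Cre controls. Lyz2-Cre acts in myeloid cells, neutrophils included. The labels name no driver for the knockouts and knock-ins, no diet without steatohepatitis and no batch, and do not say whether replicates came from separate animals or cultures. If they did not, the p-values measure only the spread between these samples.

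Cells store fatty acids as triglyceride in lipid droplets, whose surface is coated with perilipins. Perilipins hold lipases off the stored fat, CIDE proteins let droplets fuse and grow, and adipose triglyceride lipase, encoded by Pnpla2, takes the first step in breaking triglyceride down. In fatty liver the hepatocytes fill with droplets, while macrophages that take up lipid become foamy and make much of the same coat. Calcineurin signalling switches on the transcription factor NFATc3, and the Map3k5 product ASK1 is a protein kinase of stress signalling.

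Promoter sequences are shown for 4 members whose values carry the results below: Plin2, which rose in both knock-in sets, the neighbouring genes Plin4 and Plin5, whose log2 changes had opposite signs in NFATc3-MKO and ASK1-MKO livers (of these 4 changes, 1 passed the test, that of Plin4 in NFATc3-MKO), and G0s2, which varied most among livers. Each is 300 bases, from 250 before to 50 after the start used by the window's source, on the gene's own strand. For Plin4, Plin5 and G0s2 that start lies inside the gene by the gene positions given below. The windows come from RefSeq on GRCm38.p6, at chr4:86670010-86670309, chr17:56109733-56110032, chr17:56117499-56117798 and chr1:193273139-193273438, all on the minus strand. Capitals mark GGAAA or its reverse complement TTTCC, the core bases of NFAT binding sites.
Plin2: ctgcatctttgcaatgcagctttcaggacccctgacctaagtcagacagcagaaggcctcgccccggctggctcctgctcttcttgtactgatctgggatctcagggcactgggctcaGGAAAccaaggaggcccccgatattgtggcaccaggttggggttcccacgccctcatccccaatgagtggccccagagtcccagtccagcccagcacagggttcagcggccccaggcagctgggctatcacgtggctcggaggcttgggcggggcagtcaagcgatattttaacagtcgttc
Plin4: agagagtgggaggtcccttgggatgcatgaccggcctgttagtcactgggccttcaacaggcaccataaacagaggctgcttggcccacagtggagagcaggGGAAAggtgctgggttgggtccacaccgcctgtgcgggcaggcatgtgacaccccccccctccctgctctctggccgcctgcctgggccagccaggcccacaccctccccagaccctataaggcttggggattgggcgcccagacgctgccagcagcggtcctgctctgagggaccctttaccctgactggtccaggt
Plin5: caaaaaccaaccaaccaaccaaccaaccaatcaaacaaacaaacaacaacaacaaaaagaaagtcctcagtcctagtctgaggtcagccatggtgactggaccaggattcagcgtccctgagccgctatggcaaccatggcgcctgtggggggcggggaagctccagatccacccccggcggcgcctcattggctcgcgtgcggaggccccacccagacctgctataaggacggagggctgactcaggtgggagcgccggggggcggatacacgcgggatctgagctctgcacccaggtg
G0s2: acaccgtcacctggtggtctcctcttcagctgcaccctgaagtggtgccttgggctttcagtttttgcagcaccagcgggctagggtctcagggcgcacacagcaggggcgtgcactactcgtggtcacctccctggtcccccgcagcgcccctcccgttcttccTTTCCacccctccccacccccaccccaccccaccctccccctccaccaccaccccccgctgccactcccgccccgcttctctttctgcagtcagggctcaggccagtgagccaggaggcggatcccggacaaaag
GGAAA was found on either strand in 61.3% of all 32851 such windows, and 8 of the 10 members had a window. No window was available for Cidea or for Fabp4, whose changes are also given below. Plin2 and Plin4 held 1 match each on the gene's strand, G0s2 held 1 on the other strand, and the Plin5 window shown held none. Of the windows not shown, that of Plin3 held 2 matches, 1 Cidec window held 2 and the other none. Those of Cideb and Pnpla2 held none. The PPAR response element, as 2 copies of AGGNCA 1 base apart, was found in 0.381% of windows and in no member's window. The single unit AGGTCA, found in 16.3%, was in those of Plin2 and Plin5, and the E-box CACGTG, found in 7.15%, was in that of Plin2. All motifs were searched on both strands.

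Plin4, Plin5 and Plin3 lie in this order on the minus strand of chromosome 17, at chr17:56100591-56109803, chr17:56111601-56117596 and chr17:56277476-56292873 in mm10. Plin4 and Plin5 are 1797 bases apart. G0s2, at chr1:193272161-193273217, lies wholly within Lamb3, which is on the opposite strand, and 1451 bases of Cideb, at chr14:55754050-55758458, overlap Nop9, also on the opposite strand. The libraries keep strand, but the strand setting used in counting is not given in the sources used here. Lamb3 stood at 1.9 to 5.01 counts-per-million (CPM) in livers and Nop9 at 13.3 to 25.2, against 23.3 to 242 for G0s2 and 130 to 226 for Cideb.

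The counts of 15 livers totalled 20601168 to 30834547, and those of MDKO replicate 3 only 8912117. Cultures ranged from 7693464 to 9398163 counts with the NFATc3-MKI knock-in or its controls, and from 16051951 to 18728508 with ASK1-MKI or its controls. In no group did a targeted gene pass the test in the direction of its label. Nfatc3 stood at 28.3 ± 5.78 CPM (SD, n = 4) in livers labelled NFATc3-MKO against 36.3 ± 3.94 in Lyz2-Cre livers (edgeR adjusted p = 0.12), and at 36.6 ± 4.6 in those labelled MDKO (adjusted p = 1). Map3k5 was higher in livers labelled ASK1-MKO (46.3 ± 6.12 against 30.9 ± 2.21 CPM, edgeR adjusted p = 0.0262) and stood at 30.6 ± 2.15 in those labelled MDKO (adjusted p = 1). In cultures labelled NFATc3-MKI, Nfatc3 was lower (81.1 ± 8.04 against 97.5 ± 7.33 CPM, n = 3, edgeR adjusted p = 0.0371), and in those labelled ASK1-MKI, Map3k5 was lower (26.9 ± 0.349 against 30.1 ± 0.174 CPM, n = 3, edgeR adjusted p = 0.0266). Groups are therefore named as labelled throughout. Hepatocyte markers summed to 74800 to 135000 CPM in livers, where macrophage markers summed to 99 to 728, and to at most 0.126 in cultures. Liver values of Nfatc3 and Map3k5 mix all cell types, so they do not show whether the macrophage knockouts worked. Macrophage markers summed to 33200 to 37000 CPM in the ASK1-MKI set but to 1680 to 2560 in the NFATc3-MKI set, whose control cultures held 391 CPM of Lyz2 against 28100 in the other controls.

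Plin2, the perilipin found on droplets of most cells, was the most abundant member in the MCD-fed liver. Its level per length was 340 CPM per kilobase (kb) of transcript (median of 16 livers, range 265 to 392), and its highest liver stood only 1.48 times above its lowest. Cideb, the CIDE gene of hepatocytes, which also serves in loading lipid onto lipoproteins, followed at 138 CPM per kb (108 to 187). G0s2, whose protein binds and inhibits the Pnpla2 lipase, stood at 103 CPM per kb but ran from 26.8 to 278. Its range of 10.4 times was the widest of the 9 members that passed the filter on low counts.

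Pnpla2 itself came next with 47.2 CPM per kb (31.2 to 69.4). Plin5, which tethers droplets to mitochondria in tissues that burn fat, stood at 34.9 (18.3 to 52). Cidec, which drives the growth of large droplets in adipocytes and in fatty liver, stood at 15.8 CPM per kb (9.92 to 38). The ranges of these neighbours in the order overlapped.

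The lower end was held by Plin3, a perilipin present in most cells that coats small new droplets, at 11.5 CPM per kb (7.21 to 14.2). Fabp4, the carrier of fatty acids in adipocytes, macrophages and capillary endothelium, followed at 7.48 (5.78 to 14.5), and Plin4, best known from adipocytes and muscle, at 3.04 (1.58 to 7.79). Cidea, a gene of brown fat that is also reported in fatty liver, had 19 counts in the 16 livers together and was not tested. Along this order the ranges of neighbours overlapped everywhere but between Plin2 and Cideb and between Plin4 and Cidea. The adipocyte markers of the liver table (Adipoq, Cfd, Plin1 and Ucp1) summed to 0 in every Lyz2-Cre liver and to at most 0.115 CPM in any liver.

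**Figure D1:**
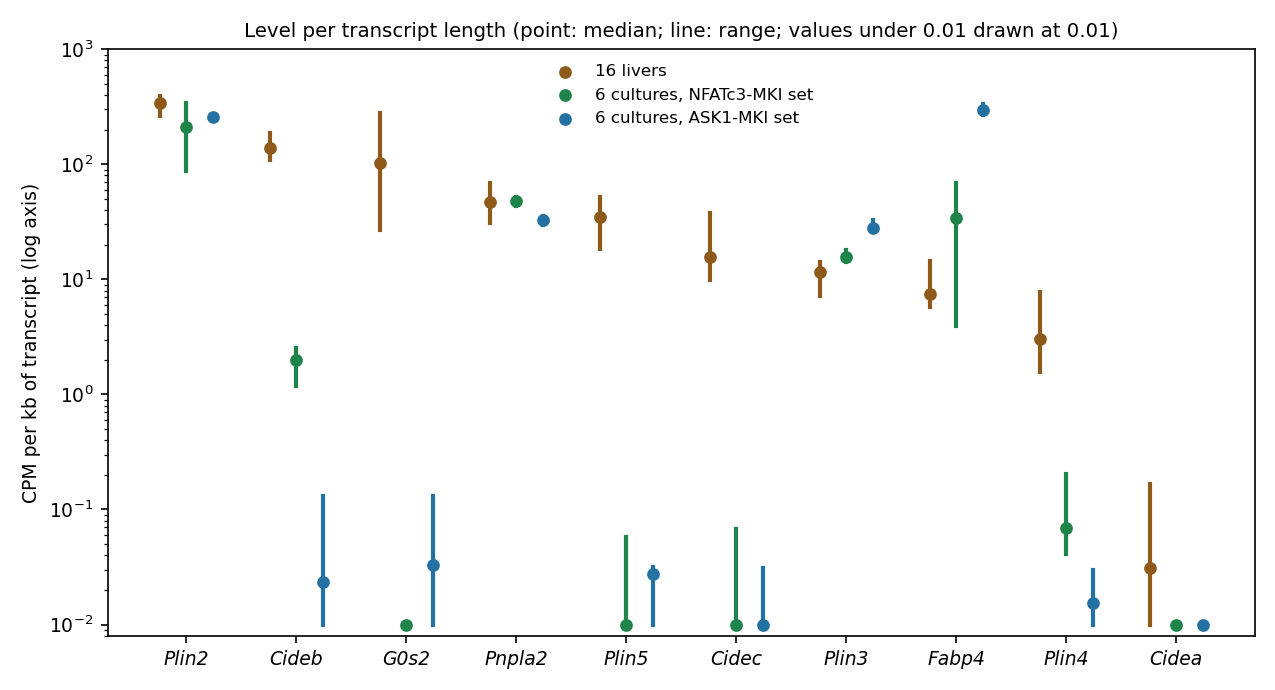
Level per transcript length of each member, in CPM per kb on a log axis, as the median (point) and range (line) of 16 livers and of the 6 cultures of each knock-in set, each set from its own table. Plin2 was high in all 3 sets, Cideb, G0s2, Plin5 and Cidec were high in livers only, and Fabp4 stood at 297 CPM per kb in the ASK1-MKI set against 34.3 in the NFATc3-MKI set.

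What goes with macrophage NFATc3 loss in the fatty liver was asked by setting livers labelled NFATc3-MKO against Lyz2-Cre livers. Plin4 was the member that rose, by 2.31-fold. The other 8 tested members did not pass the test, with Fabp4 (1.48-fold) nearest to it. Of these 8, G0s2, Plin5 and Cideb had negative log2 changes. Thus 1 of 9 tested members was called, against 8.45% of all genes (3.77% higher and 4.67% lower), and the members' median log2 change was 0.10 against 0.03 over all genes.

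Plin4 stood at 17.0, 17.3, 9.73 and 13.4 CPM in Lyz2-Cre livers 1 to 4 and at 44.8, 24.3, 37.4 and 26.0 CPM in livers 1 to 4 labelled NFATc3-MKO. Every NFATc3-MKO liver was above every control liver. Plin4 was the only tested member with groups that did not overlap, which held for 12.8% of all genes. Its log2 change was 1.21 ± 0.34 (SE, edgeR adjusted p = 0.0369), and it ranked 297th among the positive changes of 13309 genes. The call was lost when Lyz2-Cre liver 1 (edgeR adjusted p = 0.058), 3 (0.128) or 4 (0.0993) or NFATc3-MKO liver 1 (0.0652) or 3 (0.0924) was left out, with changes of 1.03 to 1.33 over all 8 such fits.

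Fabp4 stood at 5.79, 6.29, 6.74 and 6.29 CPM in Lyz2-Cre livers and at 6.66, 13.0, 10.4 and 7.16 CPM in NFATc3-MKO livers. NFATc3-MKO livers 2 and 3 were above all controls by a wide margin and liver 1 was within their range. The log2 change was 0.56 ± 0.18 (edgeR adjusted p = 0.062), and it passed without NFATc3-MKO liver 1 (0.0196) or 4 (0.0392). Cidec stood at 24.5, 50.7, 22.6 and 20.1 CPM in controls and at 28.9, 56.0, 65.3 and 39.0 CPM in NFATc3-MKO livers. Control liver 2 lay among the NFATc3-MKO livers, and the other controls lay below all of them. The log2 change of Cidec was 0.68 ± 0.31 (edgeR adjusted p = 0.174), and 1.09 without Lyz2-Cre liver 2 (adjusted p = 0.0277).

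The livers high in Fabp4 and Cidec were also high in markers of lipid-associated macrophages (Trem2, Gpnmb, Spp1, Cd9 and Lgals3), of which Spp1 rose and the other 4 did not pass. This list summed to 129, 895, 532 and 437 CPM in NFATc3-MKO livers 1 to 4 and to 95.3, 269, 95.3 and 125 CPM in controls. Macrophage markers summed to 122 to 728 CPM in NFATc3-MKO livers and to 107 to 343 in controls (0 of 6 called by edgeR), and endothelial markers to 81.9 to 142 and 134 to 171 (1 of 5 lower). Neutrophil markers summed to 5.7 to 36.5 CPM against 1.4 to 7.9 (2 of 2 tested higher), Kupffer cell markers to 157 to 204 against 191 to 364 (2 of 5 lower) and hepatocyte markers to 74800 to 114000 against 100000 to 135000 (1 of 6 lower). Mpo, 1 of the 4 neutrophil markers, was at 0 in all 4 Lyz2-Cre livers and in 2 of 4 NFATc3-MKO livers. Of the macrophage, Kupffer cell, endothelial and hepatocyte markers, 0 were at 0 in a whole group. Their part in the Fabp4 and Cidec values was not tested. In whole tissue, fewer cells of a type and less RNA per cell cannot be told apart.

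G0s2 split the livers in both groups, at 202, 85.8, 207 and 90.3 CPM in Lyz2-Cre livers 1 to 4 and 142, 31.9, 95 and 23.3 CPM in NFATc3-MKO livers 1 to 4. In each group, livers 1 and 3 were high and livers 2 and 4 were low, so the groups overlapped. The log2 change of G0s2 was −1.0 ± 0.52 (edgeR adjusted p = 0.224). It ran from −1.55 to −0.69 with 1 liver left out, without passing, and voom gave −2.06 and did call it (adjusted p = 0.0153). Plin5 stood at 96.1, 59.8, 103 and 71.6 CPM in controls and at 60.4, 36.3, 72.9 and 57.4 CPM in NFATc3-MKO livers. Its groups overlapped, with the highest controls above every NFATc3-MKO liver (log2 change −0.54 ± 0.21, edgeR adjusted p = 0.113).

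Plin3 stood at 36 ± 8.54 CPM (SD, n = 4) in controls and 46.5 ± 3.91 in NFATc3-MKO livers (log2 change 0.37 ± 0.17, edgeR adjusted p = 0.166). Cideb stood at 185 ± 30.8 and 154 ± 18.3 CPM (−0.26 ± 0.14, adjusted p = 0.222). Plin2 and Pnpla2 gave the smallest changes, of 0.10 ± 0.13 (adjusted p = 0.661) and 0.03 ± 0.23 (adjusted p = 0.94). The 95% interval of the Plin2 change ran from −0.15 to 0.35.

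**Figure D2:**
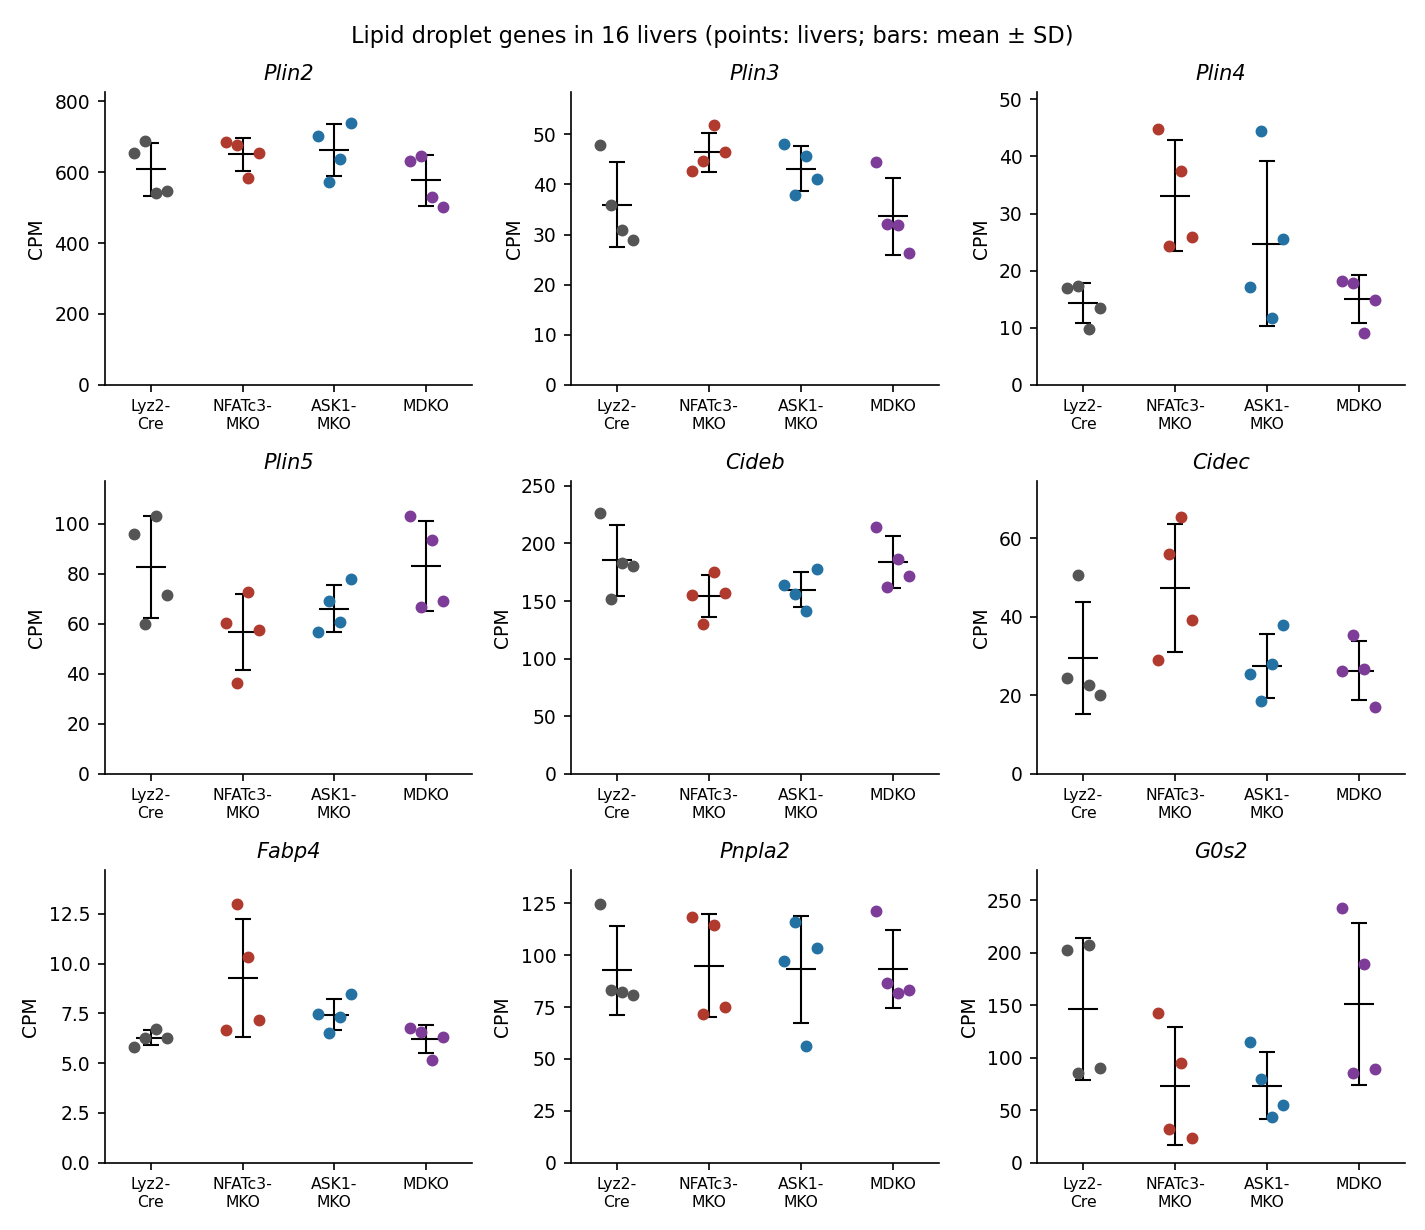
Levels of the 9 tested members in CPM (y axis, from 0) in each of 4 livers per labelled group, with points for livers and bars for the mean ± SD. All 4 NFATc3-MKO livers lie above all Lyz2-Cre livers for Plin4, G0s2 splits the Lyz2-Cre and MDKO livers into a high and a low pair, and Plin2 stays within 501 to 740 CPM.

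Livers labelled ASK1-MKO gave no member past the test against the same Lyz2-Cre livers. Of the 9 tested members, 0 were called by edgeR, against 8.46% of all genes (4.46% higher and 4% lower). An unadjusted p under 0.05 was found for 1 member (Plin4) and for 3119 of 13309 genes. DESeq2 called 0 and voom called 1 (Plin3, log2 change 0.39, adjusted p = 0.0476). Plin4 stood at 17.2, 44.5, 11.7 and 25.6 CPM in livers 1 to 4 (log2 change 0.78 ± 0.34, edgeR adjusted p = 0.166). Liver 2 matched the highest NFATc3-MKO liver, and livers 1 and 3 lay within the controls. G0s2 stood at 115, 80.0, 43.7 and 55.0 CPM, with 3 livers below every control (−0.99 ± 0.52, adjusted p = 0.261). The members' median log2 change was 0.00, against −0.03 over all genes.

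The other members of the ASK1-MKO livers were closer to the controls. Plin5 stood at 66.1 ± 9.33 CPM (SD, n = 4) against 82.7 ± 20.4 (log2 change −0.32 ± 0.21, edgeR adjusted p = 0.386), Plin3 at 43.2 ± 4.57 against 36 ± 8.54 (0.26 ± 0.17, adjusted p = 0.366) and Fabp4 at 7.45 ± 0.8 against 6.28 ± 0.386 (0.25 ± 0.18, adjusted p = 0.449). Cidec, at 27.4 ± 8.07 CPM, had a change of −0.11 ± 0.31 with a 95% interval of −0.72 to 0.51. Pnpla2 gave a change of 0.00 ± 0.23, but its 4 livers spanned 56.1 to 116 CPM.

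**Figure D3:**
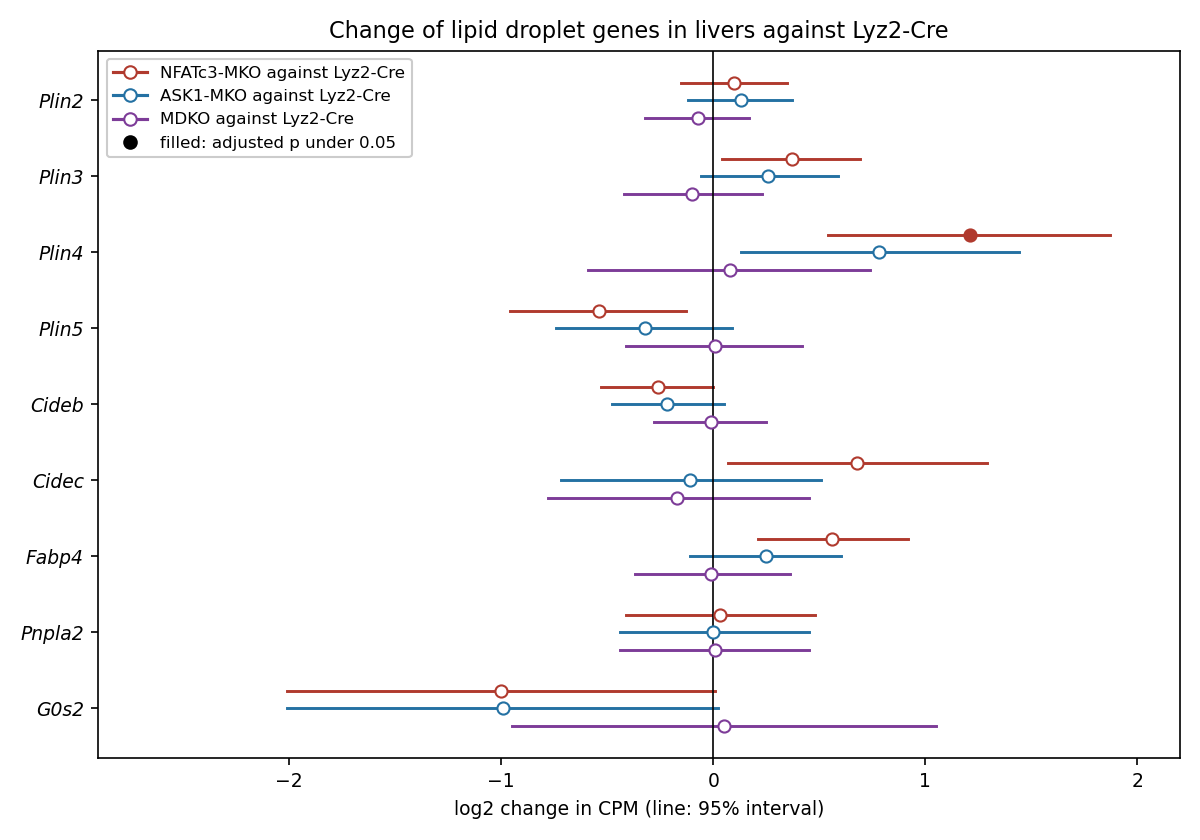
Log2 change in CPM of the 9 tested members in each knockout group against the same 4 Lyz2-Cre livers (x axis), with lines for the 95% interval and filled points for an edgeR adjusted p under 0.05. The filled point is Plin4 in NFATc3-MKO (1.21), and all MDKO changes lie between −0.17 and 0.08.

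Livers labelled MDKO were close to Lyz2-Cre livers for every tested member. The log2 changes ran from −0.17 (Cidec) to 0.08 (Plin4), and 0 of 9 members were called by edgeR, DESeq2 or voom, with 0 at an unadjusted p under 0.05. Over all genes, 0% were called by edgeR, 35 of 13309 had an unadjusted p under 0.05, and 0.458% had groups that did not overlap. Unrelated groups without a difference would give more genes of both latter kinds, so p-values and intervals may be miscalibrated here. The 95% intervals allow changes of −0.32 to 0.17 for Plin2, −0.28 to 0.25 for Cideb and −0.37 to 0.36 for Fabp4, but of −0.95 to 1.05 for G0s2.

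The members' values also followed the replicate number across these groups. G0s2 stood at 242, 85.8, 189 and 89.0 CPM in MDKO livers 1 to 4, which repeats the order of high and low numbers in Lyz2-Cre livers. Pnpla2 stood at 125, 83.2, 82.4 and 80.7 CPM in Lyz2-Cre livers 1 to 4 and at 121, 86.6, 82.0 and 83.2 CPM in MDKO livers 1 to 4. The same-numbered livers differed by at most 1.04-fold, and liver 1 stood far above the others in both groups.

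For 8 of 9 members the median difference between same-numbered Lyz2-Cre and MDKO livers (4 pairs) was smaller than that between livers of other numbers (12 pairs). This also held for 76.9% of all genes. The median over the members was 0.10 log2 units for the same number and 0.37 for other numbers, against 0.13 and 0.23 over all genes. For G0s2 these were 0.07 and 1.16. Fabp4 was the exception, at 0.14 and 0.10. Deviations from the group mean correlated at 0.24 to 0.53 over genes in all 4 same-numbered pairs, and with the number as a block the count of members called was again 0.

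**Figure D4:**
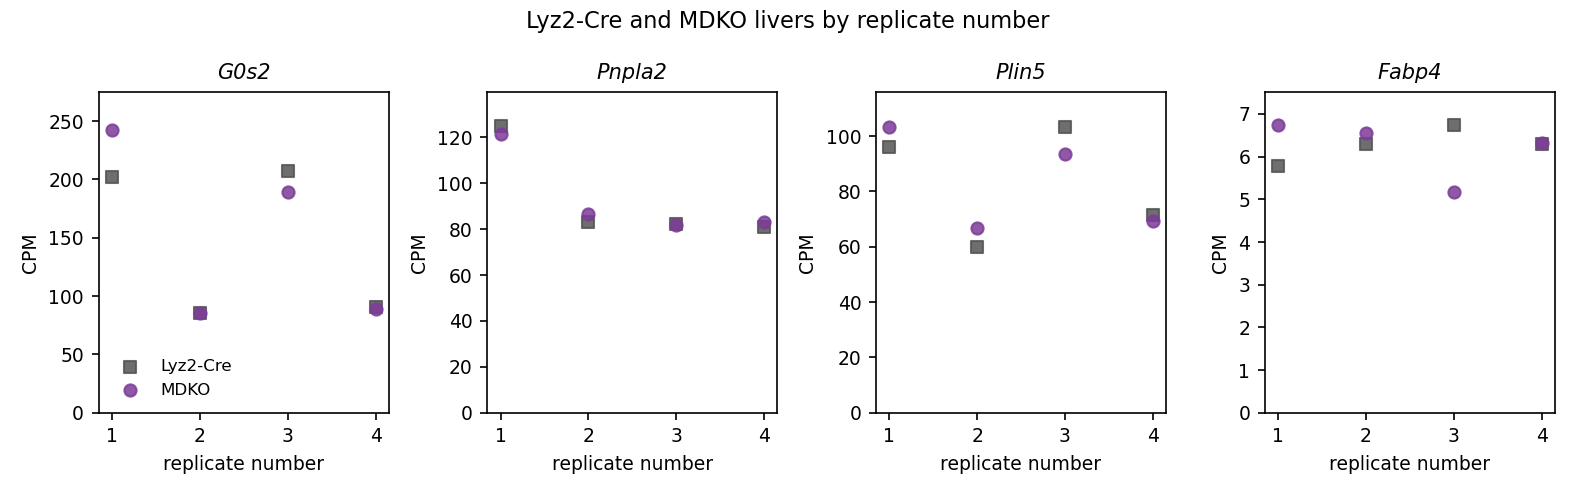
Levels of G0s2, Pnpla2, Plin5 and Fabp4 in CPM (y axis, from 0) by replicate number (x axis) in Lyz2-Cre livers (squares) and MDKO livers (circles). The 2 symbols of a number lie close together for G0s2, Pnpla2 and Plin5, and the order of the numbers is not shared for Fabp4.

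Direct comparisons between the knockout groups called no member in edgeR. Between livers labelled NFATc3-MKO and ASK1-MKO, 0 of 9 were called, against 12.8% of all genes (7.15% higher and 5.61% lower). An unadjusted p under 0.05 was found for 1 member (Cidec, log2 change 0.79 ± 0.31) and for 4032 of 13309 genes. DESeq2 and voom called 0 members. Without NFATc3-MKO liver 1, Cidec passed (0.95, adjusted p = 0.0408). Between MDKO and ASK1-MKO livers, 0 were called, against 7.72% of all genes (3.46% higher and 4.26% lower). Groups did not overlap for 0 of 9 members, against 18.1% of all genes. An unadjusted p under 0.05 was found for 1 member (Plin3, −0.36 ± 0.17) and for 3040 of 13309 genes. DESeq2 called 0 members and voom called 1 (Plin3, −0.50, adjusted p = 0.0144).

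Between MDKO and NFATc3-MKO livers, 0 of 9 members were called by edgeR, against 7.35% of all genes (4.06% higher and 3.29% lower). An unadjusted p under 0.05 was found for 5 members and for 3492 of 13309 genes. DESeq2 and voom each called 2 members, and voom called 2636 genes in all. Plin4 came nearest to the threshold, with a change of −1.13 ± 0.34 (edgeR adjusted p = 0.0513) and MDKO livers at 18.2, 17.8, 9.10 and 14.9 CPM. All 4 were below every NFATc3-MKO liver, a separation found for 12.7% of all genes. In order of p, Fabp4 followed with −0.57 ± 0.18 (adjusted p = 0.0648), Plin3 with −0.46 ± 0.17 (0.0905), Cidec with −0.85 ± 0.31 (0.101) and Plin5 with 0.55 ± 0.21 (0.112). G0s2 had a change nearly as large as that of Plin4 but a wider error (1.05 ± 0.52, adjusted p = 0.208), and voom called it (1.92). Leaving out 1 liver carried Fabp4 past the threshold (without NFATc3-MKO liver 1, 0.022, or 4, 0.0412), Plin3 (without MDKO liver 1, 0.0265) or Cidec (without NFATc3-MKO liver 1, 0.0486).

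The interaction asks whether the changes of the livers labelled as single knockouts add up in those labelled MDKO, in which both targeted genes stood near control levels. It was taken as the change from NFATc3-MKO to MDKO livers less the change from Lyz2-Cre to ASK1-MKO livers, so that a value of 0 means that the log2 changes add. Plin4 (−1.91 ± 0.48, edgeR adjusted p = 0.0124), Fabp4 (−0.82 ± 0.26, adjusted p = 0.0401) and Plin3 (−0.73 ± 0.23, adjusted p = 0.0435) had negative interactions: each had a positive log2 change in NFATc3-MKO and in ASK1-MKO livers and a change between −0.10 and 0.08 in MDKO livers. Thus 3 of 9 members were called, all negative, against 16.2% of all genes in either direction, 8% negative and 8.17% positive. The members' median was −0.30 against 0.00 over all genes. Same-numbered Lyz2-Cre and MDKO livers, which enter the interaction with the same sign, deviated together (correlations of 0.24 to 0.53). The fit treats them as independent, so the p-values of the interaction may be too small. Positive values that did not pass were those of G0s2 (2.04 ± 0.73, adjusted p = 0.0662), Plin5 (0.87 ± 0.30, 0.0558) and Cideb (0.47 ± 0.19, 0.108).

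The Plin4 interaction passed in all 16 fits with 1 liver left out, but those of Fabp4 and Plin3 did not. Fabp4 was lost without ASK1-MKO liver 1 or 4, Lyz2-Cre liver 1, 3 or 4, MDKO liver 3 or 4, or NFATc3-MKO liver 2 or 3, at adjusted p values of 0.0604 to 0.0823 and changes of −0.85 to −0.61. Plin3 was lost without ASK1-MKO liver 1, 3 or 4, Lyz2-Cre liver 3 or 4, MDKO liver 2, 3 or 4, or NFATc3-MKO liver 2, 3 or 4 (0.051 to 0.0968). Other members passed in single fits: G0s2 without NFATc3-MKO liver 1 (2.58, adjusted p = 0.0236), Cidec without Lyz2-Cre liver 2 (−1.16, 0.0485), and Plin5 without Lyz2-Cre liver 2 (0.98, 0.031), MDKO liver 2 (0.94, 0.0496) or NFATc3-MKO liver 3 (1.02, 0.0285).

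Cultured macrophages carried a shorter set of droplet genes than liver. Plin2, Plin3, Pnpla2 and Fabp4 passed the filter on low counts in both culture sets. Cideb also passed in the NFATc3-MKI set, at 2.42 ± 0.717 CPM (SD, n = 3) in its controls. Cidea had 0 counts in all 12 cultures, which allows up to 0.122 CPM in the NFATc3-MKI controls and 0.114 in the knock-in, and up to 0.0556 and 0.06 CPM in the other set, by counting error alone. Plin5, Cidec and G0s2 had at most 4 counts in the 6 cultures of either set, and Plin4 27 and 10.

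NFATc3-MKI cultures held more Fabp4, Plin2 and Plin3 than their controls, while Pnpla2 did not pass the test. Fabp4 rose 12.4-fold and Plin2 rose 3.14-fold. Thus 3 of 5 tested members were called, all higher, against 33.3% of all genes in either direction and 16.5% higher. The members' median log2 change was 0.25 against 0.00 over all genes. In these cultures Nfatc3 itself was lower than in controls, against the label.

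Fabp4 stood at 5.59, 5.12 and 3.53 CPM in controls 1 to 3 and at 55.8, 61.7 and 58.7 CPM in NFATc3-MKI cultures 1 to 3. The groups were far apart. The log2 change of 3.63 ± 0.15 (edgeR adjusted p = 2.07e-14) was the 13th largest rise among 13363 genes. Plin2 stood at 224, 166 and 190 CPM in controls and at 574, 642 and 601 CPM in NFATc3-MKI cultures, again without overlap (1.65 ± 0.10, adjusted p = 1.19e-11). Only 1.03% of genes changed by more than Plin2 did, in either direction, whereas groups without overlap were found for 45.8% of all genes. Both calls held whichever culture was left out, with changes of 3.45 to 3.76 and 1.55 to 1.77.

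Plin3 stood at 51.8, 54.8 and 53.8 CPM in controls and at 64.4, 60.6 and 65.8 CPM in NFATc3-MKI cultures. The groups did not overlap, but the log2 change was small (0.25 ± 0.09, 1.19-fold, edgeR adjusted p = 0.0448). The call was lost without control culture 1 (0.15), 2 (0.0673) or 3 (0.128) or without NFATc3-MKI culture 1 (0.107) or 3 (0.104). Pnpla2 stood at 87.4 ± 6.17 CPM (SD, n = 3) in controls and 83.4 ± 5.05 in NFATc3-MKI cultures, with a 95% interval of the log2 change from −0.25 to 0.11. Cideb gave −0.13 ± 0.35 (adjusted p = 0.805).

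Markers of lipid-associated macrophages moved with Fabp4 and Plin2 in this set. They summed to 5160 to 5780 CPM in controls and to 18300 to 22900 in NFATc3-MKI cultures, with 3 of 5 higher, mostly through Spp1, at 4260 and 19200 CPM. General macrophage markers summed to 1680 to 1810 and 2330 to 2560 CPM (5 of 6 higher). Adipocytes and endothelium are other sources of Fabp4. Adipocyte markers summed to 1.98 to 2.26 CPM in controls and to 1.27 to 1.72 in NFATc3-MKI cultures. Adipoq and Plin1 were at 0 in every culture of this set. Endothelial markers summed to 0.533 to 0.942 CPM in controls and to 1.19 to 1.85 in NFATc3-MKI cultures, too low for any to be tested. The part of macrophage state in the Fabp4 and Plin2 values was not tested.

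**Figure D5:**
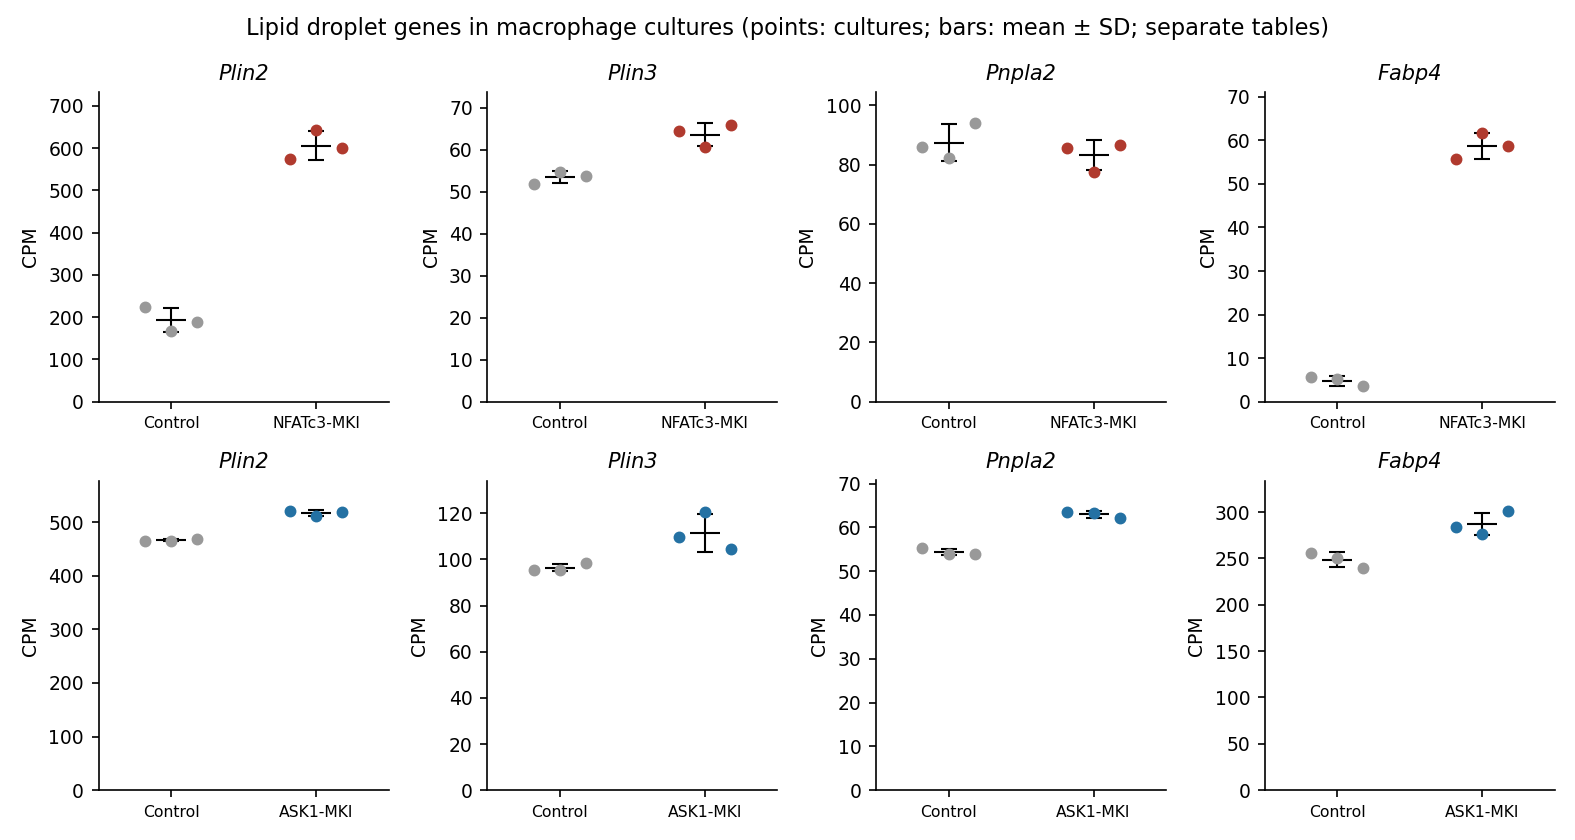
Levels of Plin2, Plin3, Pnpla2 and Fabp4 in CPM (y axes, from 0) in 3 control and 3 knock-in cultures of the NFATc3-MKI set (upper row) and of the ASK1-MKI set (lower row), with points for cultures and bars for the mean ± SD. Fabp4 and Plin2 are far above their controls in NFATc3-MKI cultures, and all 4 genes lie slightly above them in ASK1-MKI cultures.

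ASK1-MKI cultures gave small rises in all 4 tested members, of 1.11-fold to 1.16-fold. All 4 were called and in all 4 the groups did not overlap, against 49.1% of all genes called in either direction, 24.6% called higher and 54.5% without overlap. Map3k5 itself was lower in these cultures, against the label. The replicates of this set were unusually alike, with a common biological coefficient of variation of 0.0214 against 0.0892 in the NFATc3-MKI set and 0.208 in livers.

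Fabp4 stood at 256, 250 and 240 CPM in controls and at 284, 277 and 301 CPM in ASK1-MKI cultures (log2 change 0.21 ± 0.03, edgeR adjusted p = 4.39e-11). Plin2 stood at 465, 466 and 469 CPM in controls and at 520, 511 and 520 CPM in ASK1-MKI cultures (0.15 ± 0.02, adjusted p = 3.69e-09). These groups lay close together without touching. Plin3 rose by 0.21 ± 0.04 log2 units, from 96.5 ± 1.59 to 112 ± 8.29 CPM (SD, n = 3, edgeR adjusted p = 7.26e-07). Pnpla2 rose by 0.21 ± 0.05, from 54.4 ± 0.797 to 63 ± 0.808 CPM (adjusted p = 3.35e-05). Between 38% and 51.9% of genes had a larger change than these members, and the members' median of 0.21 compares with 0.00 over all genes.

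Neutrophil markers summed to 89.5 to 94 CPM in these controls and to 28.1 to 29.1 in ASK1-MKI cultures (3 of 3 tested lower), and those of lipid-associated macrophages to 15000 to 15200 and 13800 to 13900 (2 of 5 higher, 3 lower). Kupffer cell markers summed to 149 to 152 and 49.5 to 51.7 CPM (2 of 2 tested lower), B and T cell markers to 5.89 to 6.97 and 1.82 to 2.68 (2 of 2 lower), and stellate cell markers to 4.61 to 6.37 and 9 to 9.49 (2 of 3 higher). Macrophage markers summed to 33200 to 35600 and 35000 to 37000 CPM, with 3 of 6 higher and 2 lower, among them Cd14 (−1.73 ± 0.03), and endothelial markers to 8.28 to 9.39 and 10 to 12.3 (1 of 3 higher, 1 lower). Their part in the members' values was not tested. Side by side, Fabp4 stood at 249 ± 8.1 CPM in the controls of this set and at 4.75 ± 1.08 CPM in those of the NFATc3-MKI set, both grown from Lyz2-Cre bone marrow by the labels. The tables were scaled separately, so no test was made between them. Within its own set, Fabp4 was above Plin2 per length in ASK1-MKI cultures and their controls together (297 against 259 CPM per kb, ranges overlapping) and below it in the NFATc3-MKI set (34.3 against 211).

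Other genes of the pathway were followed as 5 lists. Among lipases and their cofactors, 1 of 5 tested genes fell in livers labelled NFATc3-MKO, against 4.67% of all genes called lower. This was Mgll, which encodes the lipase that releases the last fatty acid of triglyceride, at 97.2 ± 14.5 CPM against 189 ± 35.6 (SD, n = 4, log2 change −0.96 ± 0.16, edgeR adjusted p = 0.00345). Mgll stood at 189 ± 16.4 CPM in ASK1-MKO livers and 198 ± 33.4 in MDKO livers, and its interaction was 1.03 ± 0.22 (adjusted p = 0.00483). Against ASK1-MKO livers Mgll was likewise lower in NFATc3-MKO livers (−0.96 ± 0.16, adjusted p = 0.00103), and it was higher in MDKO than in NFATc3-MKO livers (1.03 ± 0.16, adjusted p = 0.00262). In NFATc3-MKI cultures 2 of 4 tested genes of this list rose, against 16.5% of all genes called higher: Hilpda, which encodes a further inhibitor of the Pnpla2 lipase (0.78 ± 0.10, adjusted p = 1.97e-06), and Abhd5, its coactivator (0.70 ± 0.10, 9.66e-06). In ASK1-MKI cultures, where 24.6% of all genes were called higher and 24.5% lower, 3 of 5 rose and Hilpda fell (−1.20 ± 0.09, adjusted p = 1.44e-24), with Abhd5 (0.30 ± 0.05) and the lysosomal lipase gene Lipa (0.31 ± 0.02) among those that rose. The remaining one, Lipe (0.31 ± 0.13), did not hold when single cultures were left out.

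Fatty acid uptake and binding genes gave 1 call of 8 in NFATc3-MKO livers, against 8.45% of all genes. This was a fall of Fabp1, the main fatty acid carrier of hepatocytes, from 1670 ± 461 to 759 ± 109 CPM (a log2 change of −1.14 ± 0.23, edgeR adjusted p = 0.00793). Its change thus had the opposite sign to that of Fabp4 in the same livers. Fabp1 was also higher in MDKO than in NFATc3-MKO livers (1.24 ± 0.23, adjusted p = 0.0051). Against ASK1-MKO livers, NFATc3-MKO livers had 3 genes of this list higher (Cd36, 1.04 ± 0.22, Lpl, 1.53 ± 0.32, and Fabp5, 1.46 ± 0.44) and 3 lower (Fabp1, −1.50 ± 0.23, Slc27a5, −0.68 ± 0.20, and Slc27a2, −0.59 ± 0.19), against 7.15% of all genes called higher and 5.61% lower. In the same comparison 4 of 5 markers of lipid-associated macrophages were higher, led by Gpnmb (3.82 ± 0.89), as were 2 of 2 tested neutrophil markers and 1 of 6 macrophage markers, Lyz2 (1.65 ± 0.52). Their part in these values was not tested. Of the 6 genes, Fabp5, Slc27a2 and Slc27a5 did not hold when single livers were left out. In NFATc3-MKI cultures Cd36, the scavenger receptor that takes up fatty acids and oxidised lipoprotein, rose from 1.61 ± 0.613 to 9.15 ± 1.37 CPM (2.51 ± 0.28, adjusted p = 2.17e-07), and Fabp5 rose (0.48 ± 0.08), for 2 of 3 tested, against 16.5% of all genes called higher. In ASK1-MKI cultures Lpl (0.67 ± 0.02) and Fabp5 (0.36 ± 0.02) rose and Cd36 fell (−0.20 ± 0.02), of 4 tested, against 49.1% of all genes called.

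PPAR receptors and targets gave 1 call of 10 in each single knockout, against 8.45% of all genes in NFATc3-MKO and 8.46% in ASK1-MKO livers. Both times it was Angptl4, which encodes an inhibitor of lipoprotein lipase. It stood at 58.1 ± 3.23 CPM in Lyz2-Cre livers, 116 ± 32.1 in NFATc3-MKO (log2 change 1.00 ± 0.16, edgeR adjusted p = 0.00321), 131 ± 11.2 in ASK1-MKO (1.17 ± 0.16, adjusted p = 0.000329) and 56.5 ± 3.67 in MDKO livers. Its interaction was −2.21 ± 0.22 (adjusted p = 5.96e-05), of the same sign as that of Plin4, and each of these calls of Angptl4 held whichever liver was left out. It was lower in MDKO livers than in ASK1-MKO (−1.21 ± 0.16, adjusted p = 0.000298) and NFATc3-MKO livers (−1.04 ± 0.16, adjusted p = 0.00262). In ASK1-MKI cultures 4 of 6 tested genes of this list rose, namely Pparg (0.66 ± 0.12), Angptl4 (0.99 ± 0.25), Cpt1a (0.21 ± 0.03) and Rxra (0.17 ± 0.03), and Ppard fell (−0.45 ± 0.06), against 49.1% of all genes called. Pparg had at most 0.0392 CPM on average in either group of the NFATc3-MKI set, where 0 of 4 tested genes of the list were called by edgeR and 0 had an unadjusted p under 0.05.

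Genes of droplet formation and other droplet proteins gave few calls. Of 7 tested formation genes, 0 were called in any liver comparison by edgeR, with 0 to 4 at an unadjusted p under 0.05. The 4 were found between NFATc3-MKO and ASK1-MKO livers, where 4032 of 13309 genes had such a p. In ASK1-MKI cultures 2 of 6 tested formation genes were called, against 49.1% of all genes. Dgat2, a last enzyme of triglyceride synthesis, fell from 4.75 ± 0.307 to 0.982 ± 0.252 CPM (a log2 change of −2.27 ± 0.22, edgeR adjusted p = 6.27e-17). Bscl2, which encodes seipin at sites of droplet birth, rose (0.38 ± 0.05). Among other droplet proteins, Rab18 rose in ASK1-MKO livers (0.33 ± 0.10, adjusted p = 0.0412), a call lost without any 1 liver of either group (0.0576 to 0.109). The interaction of Rab18 was negative (−0.59 ± 0.13, edgeR adjusted p = 0.00767) and was called whichever liver was left out (0.00586 to 0.0226). In ASK1-MKI cultures Aup1 rose (0.30 ± 0.04) and Rab18 fell by 0.08 log2 units, of 3 tested, against 49.1% of all genes called. The Rab18 call was lost in 2 of 6 fits with 1 culture left out. Hsd17b13, a droplet enzyme of hepatocytes, was lower in NFATc3-MKO than in ASK1-MKO livers (−0.69 ± 0.15, adjusted p = 0.00591).

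Across livers the members fell into patterns of their own. These correlations are descriptions over 16 livers of 4 groups in 1 table, which differ in depth and cell makeup, and are given first over all livers and then with the group means removed. Same-numbered Lyz2-Cre and MDKO livers deviated together (correlations of 0.24 to 0.53), so the 16 livers may not be independent. Removing the group means does not remove this likeness. Plin5 and Cideb were closest (r = 0.88 and 0.83), and both followed G0s2 (0.76 and 0.63 for Plin5, 0.74 and 0.60 for Cideb). Pnpla2 followed Plin4 (0.55 and 0.77), Cideb (0.58 and 0.72) and G0s2 (0.57 and 0.71). Cidec followed Fabp4 (0.67 and 0.52), and Plin2 followed Plin3 (0.66 and 0.53). The neighbouring genes Plin4 and Plin5 gave −0.37 over all livers and 0.15 within groups, and Plin5 and Fabp4 gave −0.60 and −0.30.

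The genes whose levels over the 16 livers were most like each member's were all from outside the members and the pathway lists. They were picked for the highest r among 13309 genes, so high values come in part from this choice. By Pearson's r of log2 CPM, the closest were St6gal1 for Plin2 (0.84), Maskbp3 for Plin3 (0.94), Mllt6 for Plin4 (0.89) and Gde1 for Plin5 (0.93). Tm6sf2, known for its role in loading lipid onto lipoproteins, was also at 0.93 with Plin5. For Cideb the closest was Prdx6 (0.97), for Cidec Arl6ip5 (0.90), for Fabp4 AI467606 (0.84), for G0s2 A1bg (0.88) and for Pnpla2 Pex11a (0.90), which encodes a peroxisome division protein. Angptl8, which encodes another inhibitor of lipoprotein lipase, was among the 3 closest to G0s2 (0.86). The next closest were Ccng1 (0.78) and Arsg (0.76) for Plin2, Otud5 (0.92) and Tmem177 (0.89) for Plin3, and Agtr1a and Zfp629 (both 0.88) for Plin4. Gltpd2 (0.91) followed for Plin5, Tango2 (0.96) and Bckdhb (0.95) for Cideb, and Ly6d (0.89) and Mcrs1 (0.88) for Cidec. Mcrs1 and Dusp2 (both 0.83) followed for Fabp4, Aga (0.87) for G0s2, and Aqp11 and Glrx (both 0.89) for Pnpla2. With group means removed, these values were 0.69 to 0.96.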

How the data were processed

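RNA sequencing libraries from 16 livers and 12 macrophage cultures were analysed from the deposited tables. Reads were aligned with HISAT2 to mm10, per the submitters' processing notes, and the libraries were directional (dUTP), per the labels' protocols. How reads were counted, with which annotation and strand setting, is not given in the sources used. The authors deposited expected counts per gene symbol for livers and raw counts per Ensembl gene for each macrophage set, with no normalisation found in the values.

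Expected counts were rounded, and each table was fitted separately, all 16 livers in 1 fit. Genes kept by filterByExpr (13309, 13363 and 11380) had library sizes scaled by TMM (trimmed mean of M values) and were tested with edgeR 4.0.16 (R 4.3.3), robust quasi-likelihood F test, with p-values adjusted by Benjamini-Hochberg across every gene of the comparison. A gene was called at an adjusted p under 0.05. SE is the log2 change divided by the square root of F, and 95% intervals are 1.96 SE to each side. CPM (counts-per-million) use the scaled library size. Limits for genes with 0 counts use 3 counts over the group and cover counting error only. Levels per length divide CPM by the longest principal transcript in GENCODE's mm10 annotation, which also gave positions. The fits were tested on simulated data.

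The 10 members, the pathway lists and the marker lists were chosen with earlier results of these data known. Named were all members, the pathway genes called in a comparison and the 3 genes most like each member over livers. Tmem159 and Ldaf1, and Mettl7b and Tmt1b, are pairs of names for 1 gene each. Same-numbered Lyz2-Cre and MDKO livers deviated together (correlations of 0.24 to 0.53 in 4 of 4 pairs), which was not so for every pair of any other 2 groups. The labels give no pairing. Alternatives were DESeq2 1.42.0, limma 3.58.1 voom with quality weights, DESeq2 size factors, no filter on low counts, a filter at a mean of 1 CPM, a threshold of 0.1, a further 2-fold limit, only the 2 groups compared, the replicate number as a block, and each library left out. After seeing the data, a blocked fit of just the MDKO and Lyz2-Cre livers was added.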

Additional observations from a re-analysis of the deposited data

Results flagged for a closer look

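Among 40 groups of 4 livers (10 members in 4 groups), 5 had a liver far from the other 3 by Dixon's test, which flags about 1 group in 20 by chance. Pnpla2 stood at 125 CPM in Lyz2-Cre replicate 1, against 80.7 to 83.2 in the others, and at 121 CPM in MDKO replicate 1, against 82 to 86.6. Cidec stood at 50.7 CPM in Lyz2-Cre replicate 2, against 20.1 to 24.5. Cidea stood at 0.185 CPM in NFATc3-MKO replicate 3, against 0.0322 to 0.0378, and at 0.0925 CPM in MDKO replicate 1, against 0, and both values rest on at most 8 counts in the group.

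By the interaction test, the change from NFATc3-MKO to MDKO livers differed from the change from Lyz2-Cre to ASK1-MKO livers, named as labelled, for Plin4 (−1.91 log2 units), Fabp4 (−0.82) and Plin3 (−0.73). The Fabp4 and Plin3 calls were lost in 9 and 11 of the 16 fits with 1 liver left out. In livers labelled MDKO both targeted genes stood near control levels. The test takes no account of the likeness of same-numbered Lyz2-Cre and MDKO livers, so its p-values may be too small.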

How the results depend on the processing

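Of 11 calls of members, 3 held under every alternative: Plin4 in the interaction, and Fabp4 and Plin2 in NFATc3-MKI cultures. Changes under 2-fold fail the 2-fold limit by construction, and 7 of the 11 calls held whichever library was left out. No member reversed. In NFATc3-MKO against Lyz2-Cre livers the count of members called went from 1 to 2 with DESeq2, at an adjusted p under 0.1 or with the replicate block, to 4 with voom (among them G0s2, at −2.06) and to 0 with no filter, and to 0 to 2 with 1 liver left out. In the interaction it went from 3 to 5 at an adjusted p under 0.1, with the replicate block or with voom, to 1 with the 2-fold limit, and to 1 to 5 with 1 liver left out. In MDKO against NFATc3-MKO livers it went from 0 to 3 at an adjusted p under 0.1 or with the replicate block, to 2 with DESeq2 or voom, to 1 with a mean of at least 1 CPM or the 2 groups alone, and to 0 to 2 with 1 liver left out. Against ASK1-MKO livers it went from 0 to 1 with voom in MDKO livers, and to 0 to 1 in NFATc3-MKO livers with 1 liver left out. ASK1-MKO against Lyz2-Cre livers gave 1 with voom, and ASK1-MKI cultures gave 0 in place of 4 with the 2-fold limit. The cause was not tested.

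The replicate numbers paired Lyz2-Cre with MDKO livers only by the data, where the block left the count of members at 0, also in those 8 livers alone. Elsewhere same-numbered libraries were less regularly alike, with correlations of −0.21 to 0.56 between Lyz2-Cre and NFATc3-MKO livers. With the block, G0s2 passed in NFATc3-MKO livers (−1.19, edgeR adjusted p = 0.0297). Plin3 no longer passed in NFATc3-MKI cultures (0.0551), as with DESeq2 (0.0683) and no filter (0.0787).

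Over all genes, NFATc3-MKO against Lyz2-Cre gave 1124 calls, and 218 with the 2 groups alone to 2613 with voom. MDKO against NFATc3-MKO gave 978 (231 to 2636), NFATc3-MKO against ASK1-MKO 1697 (627 to 3100), MDKO against ASK1-MKO 1028 (279 to 2553), ASK1-MKO against Lyz2-Cre 1126 (304 to 2621), the interaction 2153 (1006 to 3714), NFATc3-MKI 4452 (591 to 5493), ASK1-MKI 5586 (686 to 6244) and MDKO against Lyz2-Cre 0 in every fit. Another scaling moved the median change by at most 0.016. Depth limits Cidea in livers, and Cidea, Cidec, G0s2, Plin4 and Plin5 in cultures (and Cideb in the ASK1-MKI set), where too few counts allowed no test.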
